A study of Mus musculus with 4 samples.

Results

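Secretory cells fold large amounts of protein in the endoplasmic reticulum, and 10 genes of that machinery were followed here through the cells of mouse small intestinal adenomas. The genes are Xbp1, Hspa5, Hsp90b1, Pdia4, Pdia6, Creb3l1, Creb3l4, Ern2, Dnajc3 and Sdf2l1. They were chosen by name, as genes of the secretory load on the endoplasmic reticulum, and all 10 were found among the 27514 genes that the tables of the 4 libraries share. Each gene was measured in goblet, Paneth, plasma, adenoma, crypt and enterocyte cells, which were told apart by marker genes.

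The tumors came from C57BL/6 mice that carried the ApcMin allele, which starts adenomas when the second copy of Apc is lost. The ApcMin libraries were from ApcMin/+ mice with intact Lef1 (Lef1 +/+). The VApcMinL libraries were from mice with ApcMin/+, Lef1 fl/fl and Villin-Cre. By this design Villin-Cre deletes the floxed Lef1, a transcription factor of the Wnt pathway, from early on and throughout the intestinal epithelium. Tumor and normal epithelium should then both lack it and other cells should not, which was not checked here. All mice were 11 weeks old and labelled male, and each of the 4 libraries pooled 3 to 10 tumors of similar size and location, dissociated with enzymes and not sorted. Replicate 1 of each genotype was made with version 2 of the droplet 3′ kit and replicate 2 with version 3, so kit and replicate number cannot be told apart, and the spread between 2 libraries of a genotype includes the change of kit.

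Proteins bound for secretion enter the endoplasmic reticulum as they are made, and are folded and cross-linked there by chaperones and disulfide isomerases. When unfolded protein builds up, sensors in the membrane start the unfolded protein response, which raises the transcription of those folding genes. In the IRE1 branch the sensor cuts Xbp1 mRNA, and the spliced form encodes a transcription factor that plasma, Paneth and goblet cells depend on. The intestinal epithelium also has an IRE1 of its own, which Ern2 encodes and which is known from mucus-secreting cells. Counts of 3′ ends do not separate spliced from unspliced Xbp1 mRNA, so the values are of total Xbp1 mRNA.

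The members fall into 3 roles. Ern2 (IRE1β, chr7:122169893-122186207, minus strand, GRCm38) is a sensor. Xbp1 (chr11:5520659-5525893, plus strand), Creb3l1 (OASIS, chr2:91982328-92024502, minus strand) and Creb3l4 (chr3:90237500-90243512, minus strand) encode transcription factors, of which the CREB3L proteins sit in the membrane of the endoplasmic reticulum until they are cut free. Hspa5 (BiP, chr2:34771970-34777547, plus strand) is the main chaperone of the compartment, Hsp90b1 (GRP94, chr10:86690209-86705509, minus strand) its HSP90, Dnajc3 (p58IPK, chr14:118937976-118981697, plus strand) a co-chaperone of BiP, and Sdf2l1 (chr16:17130138-17132383, minus strand) a partner of BiP complexes. Pdia4 (chr6:47796141-47813430, minus strand) and Pdia6 (chr12:17266545-17284770, plus strand) encode disulfide isomerases.

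Folding genes are known to answer to the endoplasmic reticulum stress element (ERSE), CCAAT and CCACG with 9 bases of any kind between them, which ATF6 and XBP1 bind together with NF-Y. The 250 bases before the start of 8 members were found in RefSeq (GRCm38.p6), without Ern2 and Creb3l1. Searched on both strands, the element stood in 4 of these 8 windows and in 37 of all 32851 RefSeq windows of that length, or 0.113%. The 4 windows are printed 5′ to 3′ along the gene, because the element they share is the best known control sequence of this pathway. Capitals mark the element.

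Hspa5, chr2:34771840-34772089, plus strand: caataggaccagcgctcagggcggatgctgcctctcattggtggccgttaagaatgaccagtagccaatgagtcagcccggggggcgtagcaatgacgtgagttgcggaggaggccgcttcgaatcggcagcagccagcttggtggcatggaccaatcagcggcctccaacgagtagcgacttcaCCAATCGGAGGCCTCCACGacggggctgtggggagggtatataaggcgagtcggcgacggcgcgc

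Hsp90b1, chr10:86705445-86705694, minus strand: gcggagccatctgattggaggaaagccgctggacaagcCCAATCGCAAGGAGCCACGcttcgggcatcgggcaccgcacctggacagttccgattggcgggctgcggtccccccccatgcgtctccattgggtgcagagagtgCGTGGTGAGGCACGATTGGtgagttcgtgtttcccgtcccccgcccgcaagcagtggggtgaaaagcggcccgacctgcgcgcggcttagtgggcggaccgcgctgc

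Pdia6, chr12:17266339-17266588, plus strand: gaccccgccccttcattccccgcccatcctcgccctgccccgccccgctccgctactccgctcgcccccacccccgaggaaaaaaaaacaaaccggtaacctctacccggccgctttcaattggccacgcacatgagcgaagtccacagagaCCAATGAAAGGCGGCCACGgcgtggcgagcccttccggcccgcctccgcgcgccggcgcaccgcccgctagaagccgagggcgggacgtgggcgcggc

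Dnajc3, chr14:118937682-118937931, plus strand: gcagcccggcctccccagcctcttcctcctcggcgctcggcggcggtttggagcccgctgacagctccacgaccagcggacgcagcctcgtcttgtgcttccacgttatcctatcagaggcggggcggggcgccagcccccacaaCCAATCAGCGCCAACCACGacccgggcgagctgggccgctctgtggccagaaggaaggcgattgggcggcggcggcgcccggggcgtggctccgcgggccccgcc

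In Hspa5 the element covered the bases 65 to 47 before the RefSeq start, in Pdia6 98 to 80 and in Dnajc3 105 to 87. Hsp90b1 held it in both directions, 212 to 194 bases before the start and, on the opposite strand, 107 to 89. All 4 genes encode folding proteins. The windows of Xbp1, Creb3l4, Pdia4 and Sdf2l1 did not hold these letters, and no member's window held the related ERSE-II (ATTGG and CCACG with 1 base between them, 10 of all windows, 0.0304%) or UPRE (TGACGTGG, 185 of all windows, 0.563%). The outermost gene bounds of the GENCODE annotation reach into the windows of Hspa5, Hsp90b1 and Pdia6. A match is a run of letters and not evidence of binding.

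Between 2146 and 4449 barcodes per library passed a floor of 1000 UMIs (unique molecules) and a limit of 20% mitochondrial UMIs, with median totals of 8453 to 10556 UMIs in the kit 2 libraries and 20134 to 25465 in the kit 3 libraries. The mitochondrial limit removed 62.9% of the barcodes over the floor in ApcMin 2 and 27.3 to 30.5% in the others, and the kit 2 libraries shared 18 kept barcodes. The gates found 35 to 96 goblet, 23 to 291 plasma, 306 to 1670 adenoma, 52 to 128 crypt and 313 to 979 enterocyte cells per library, but only 3 to 26 Paneth cells, and the 3 Paneth cells of VApcMinL 1 were left out of every comparison. All markers used for a gate were detected in the class they define in every library. Apcdd1 was barely so, with 3 to 18 UMIs in 0.593 to 5.23% of adenoma cells. Crypt cells carried little Olfm4, a stem cell marker, in the kit 2 libraries (21.2 and 5.79 UMIs per 1000000 UMIs, or CPM) and much in the kit 3 libraries (987 and 1232). The genotype labels were not checked by Lef1, whose 3′ ends need not lie in the deleted part and which stood at 11.7 and 42.8 CPM in adenoma cells of the libraries labelled ApcMin against 32.8 and 26.5 in those labelled VApcMinL. Xist was counted at 1201 and 333 CPM in adenoma cells of the 2 libraries labelled VApcMinL and at 0 and 0.088 in those labelled ApcMin, although all 4 are labelled male, and was seen in 97.8% and 34.2% of adenoma cells of the former 2. How many mice a library holds is not given in the sources used here, so p-values measure the spread between libraries.

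CPM are counted out of all UMIs of a class in a library that fall in the 27514 shared genes. The antibody genes Igha, Igkc, Iglc1, Iglc2 and Ighm are not among these, while the main goblet and Paneth markers are. Plasma totals therefore leave these antibody genes out, which raises the plasma shares of other genes. By how much was not tested. Each level is a sum over the cells of the class, so fewer cells with the RNA and less RNA per cell cannot be told apart in it. In every list of 4 values the order is ApcMin 1, ApcMin 2, VApcMinL 1, VApcMinL 2. Barcodes of 10 to 100 UMIs, which hold free RNA, give the make-up of ambient RNA in CPM. They do not give how much of it a cell holds, so a class can lie below their range.

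**Figure D1:**
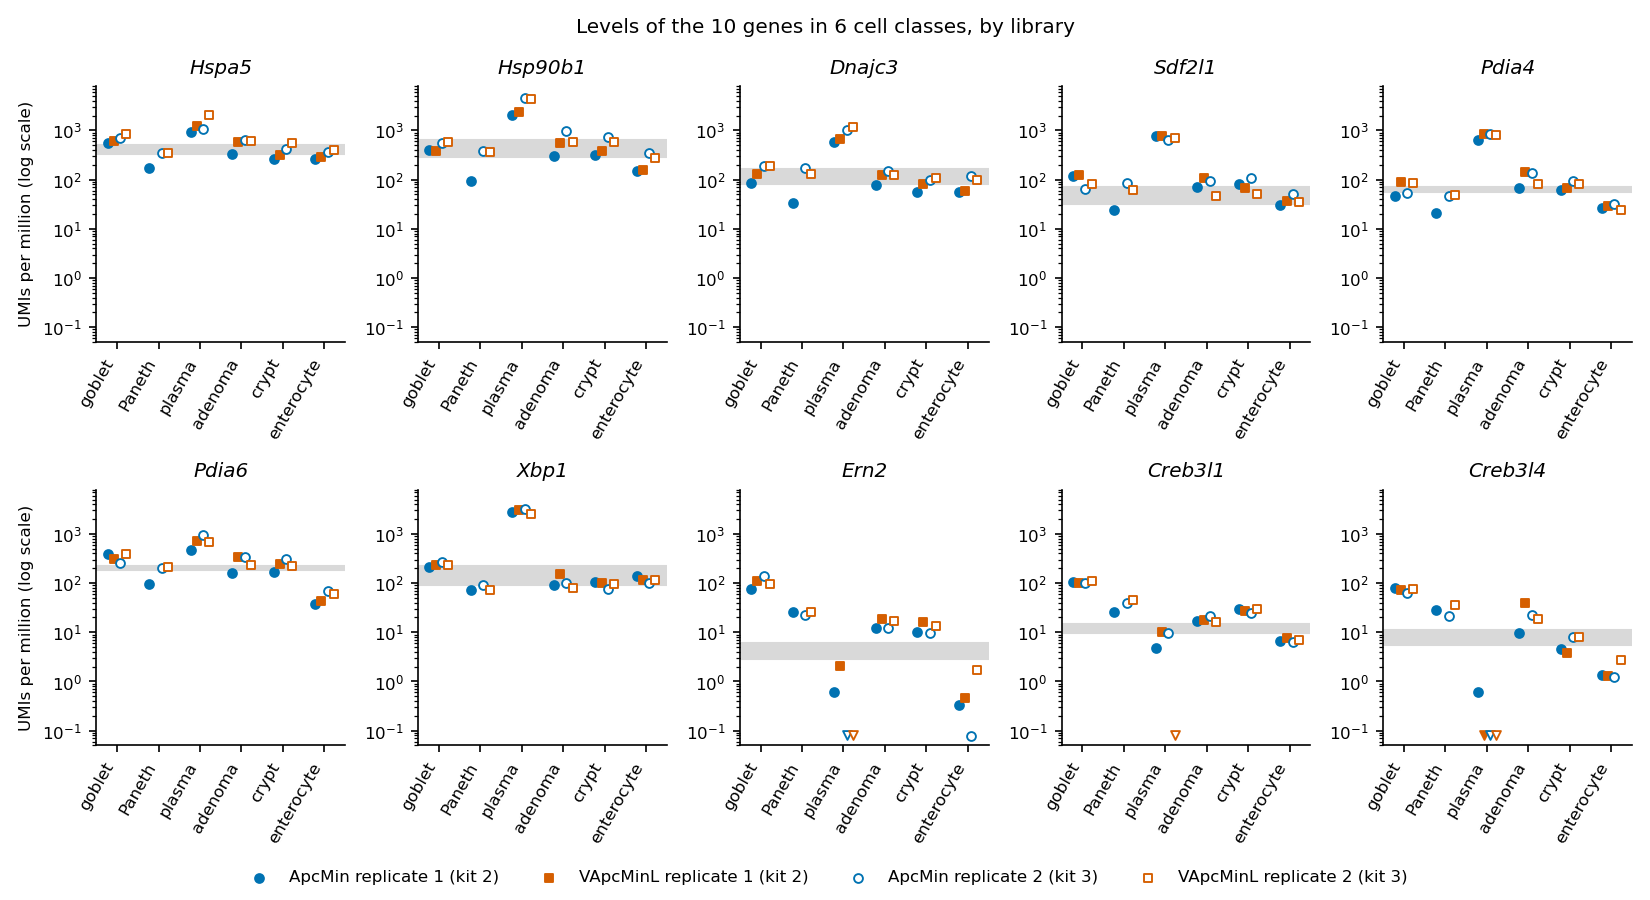
CPM (log axis) of each of the 10 genes by cell class, with a point for every library (circles ApcMin, squares VApcMinL; filled kit 2, open kit 3; triangles mark 0 UMIs) and a grey band for the range in low-UMI barcodes. Xbp1 and the folding genes peak in plasma cells, while Ern2, Creb3l1 and Creb3l4 peak in goblet cells, with Ern2 and Creb3l4 at or near 0 in plasma cells and Creb3l1 there within the low range of 0 to 10.3 CPM.

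Plasma cells had the highest levels of Xbp1 and of the 6 folding genes. Xbp1 stood there at 2795, 3205, 3022 and 2558 CPM. Goblet cells followed at 211, 263, 233 and 235, and enterocytes at 140.3, 102, 114 and 117, so that neither pair of neighbours overlapped. Adenoma (80.0 to 153), crypt (76.7 to 107) and Paneth cells (71.4 to 90.5) overlapped with enterocytes or with each other, and low-UMI barcodes held 90 to 220.0.

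Ern2 had the opposite arrangement. Goblet cells held 24, 178, 97 and 159 Ern2 UMIs, and plasma cells 1, 0, 1 and 0. In CPM goblet cells stood at 74.4, 141, 113 and 97.0 and plasma cells at 0.61, 0, 2.07 and 0. Enterocytes held 1, 2, 4 and 18 UMIs although they were far more numerous. In CPM, Paneth cells (22.6 to 26.2) lay above adenoma (12.0 to 18.4) and crypt cells (9.74 to 16.4), which overlapped, and low-UMI barcodes held 2.93 to 6.02.

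Creb3l1 and Creb3l4 followed Ern2 in their top class. Creb3l1 stood at 105, 102, 101 and 112 CPM in goblet cells against 6.34 to 7.79 in enterocytes. Creb3l4 stood at 80.6, 64.3, 73.3 and 75.1 in goblet cells and at 1.21 to 2.80 in enterocytes. By the median Paneth cells came next for both genes, at 26.2 to 45.3 for Creb3l1, which overlapped with crypt cells, and 21.7 to 35.3 for Creb3l4, which overlapped with adenoma cells. Crypt cells (24.4 to 30.3) lay above adenoma cells (16.2 to 21.2) for Creb3l1, and below them for Creb3l4 (3.86 to 8.12 against 9.85 to 39.0). In plasma cells Creb3l1 was counted 8, 2, 5 and 0 times and Creb3l4 1, 0, 0 and 0 times. A count of 0 there allows up to 14.7 CPM in ApcMin 2, 6.20 in VApcMinL 1 and 17.9 in VApcMinL 2. Low-UMI barcodes held 9.62 to 14.5 CPM of Creb3l1 and 5.44 to 11.0 of Creb3l4.

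Among the chaperones, Hspa5 had the smallest ratio of plasma to enterocyte level, 3.02 to 5.24 within libraries. Its level was 926, 1076, 1235 and 2086 CPM in plasma cells, 558, 702, 615 and 856 in goblet cells and 263, 357, 286 and 398 in enterocytes. These 3 ranges did not overlap, but adenoma cells (331 to 648) overlapped with goblet cells, and crypt (262 to 544) and Paneth cells (169 to 354) with enterocytes. Hsp90b1 reached 2092, 4600.4, 2402 and 4261 in plasma cells, far above the ranges of adenoma (305 to 951), crypt (324 to 749) and goblet cells (377 to 572), which overlapped. Dnajc3 (577 to 1148 in plasma cells, at most 193 in any other class) and Sdf2l1 (649 to 783, at most 122) had the same single high class.

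The disulfide isomerases differed in their second class. Pdia4 stood at 636 to 859 CPM in plasma cells, then at 68.1 to 142 in adenoma, 62.9 to 92.2 in crypt, 46.5 to 89.6 in goblet and 24.6 to 32.2 in enterocyte cells, with the low-UMI barcodes at 56.7 to 72.1. Pdia6 stood at 477, 934, 706 and 687 in plasma cells and at 390.4, 253, 304 and 392 in goblet cells. Adenoma (159 to 344) and crypt cells (166 to 315) overlapped with goblet cells, while enterocytes (37.0 to 70.4) lay below every other class.

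Goblet cells, which make mucus, were compared with enterocytes, the absorptive cells. All 10 genes were higher in goblet cells by edgeR's quasi-likelihood test with the library as a block (adjusted p from 1.9e-09 to 0.00038), where 23.1% of the 8763 genes tested were called higher and 24% lower. The median difference of the 10 was 1.37 on the log2 scale, against 0.04 over all genes tested. In every library each of the 10 genes had the higher level in goblet cells. Enterocytes had more mitochondrial UMIs, a sign of RNA quality, with medians of 11.4 to 13.5% against 3.35 to 5.66% in goblet, 1.94 to 4.25% in plasma, 1.25 to 3.24% in Paneth (3 libraries) and 4.69 to 6.91% in crypt cells, and this runs through every comparison with enterocytes. With a limit of 10% mitochondrial UMIs all 10 genes were still called higher in goblet cells.

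Ern2, Creb3l4 and Creb3l1 differed most. Ern2 was 209-fold higher (log2 7.70 ± 0.52, SE), Creb3l4 45.3-fold (5.50 ± 0.27) and Creb3l1 16.0-fold (4.00 ± 0.19). Xbp1, the target of IRE1, was 2.13-fold higher (1.09 ± 0.18), less than 5 of the 6 folding genes. Within libraries, Creb3l1 was 13.0 to 16.3 times as high in goblet cells and Xbp1 1.5 to 2.57 times. The Ern2 fold rests on few enterocyte UMIs: without VApcMinL 2, the library with 18 of them, the log2 difference was 9.28.

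Among the folding genes Pdia6 was 6.64-fold higher (log2 2.73 ± 0.22), Pdia4 2.59-fold (1.37 ± 0.21), Sdf2l1 2.57-fold (1.36 ± 0.24), Hsp90b1 2.27-fold (1.18 ± 0.18), Hspa5 2.22-fold (1.15 ± 0.17) and Dnajc3 1.94-fold (0.96 ± 0.17). In low-UMI barcodes Hsp90b1 stood at 294 to 653, Pdia4 at 56.7 to 72.1, Sdf2l1 at 32.6 to 72.1 and Dnajc3 at 82.6 to 167 CPM, ranges that overlapped with those of goblet cells (377 to 572, 46.5 to 89.6, 63.5 to 122 and 86.8 to 193). Goblet cells lay above the low-UMI barcodes in Hspa5 (558 to 856 against 328 to 501) and Pdia6 (253 to 392 against 186 to 226). In the kit 3 libraries alone Sdf2l1 missed the threshold (log2 0.67, adjusted p = 0.0509). With cells thinned to 1000 UMIs 7 of the 10 had enough counts to test and 6 were called, without Dnajc3 (0.77, adjusted p = 0.0788).

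Plasma cells secrete antibodies and stand here for a secretory cell outside the epithelium. Against enterocytes, 7 of the 8 genes with enough counts were higher and none lower, where 26.6% of the 9063 genes tested were called higher and 39.9% lower. Pdia4 was 25.7-fold higher (log2 4.68 ± 0.22), Xbp1 22.7-fold (4.50 ± 0.25), Sdf2l1 17.8-fold (4.15 ± 0.22), Hsp90b1 13.5-fold (3.75 ± 0.25), Pdia6 12.3-fold (3.62 ± 0.20), Dnajc3 9.57-fold (3.26 ± 0.21) and Hspa5 3.65-fold (1.87 ± 0.22). Creb3l1 differed by -0.24 ± 0.49 (adjusted p = 0.683), and Ern2 and Creb3l4 had too few counts to test. The median of the 8 was 3.69, against -0.28 over all genes tested. The same 7 genes were called under every alternative tried.

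Goblet and plasma cells were then set against each other directly, a comparison added after the levels were seen. The members split in 2, with Xbp1 on the side of the folding genes and apart from the other regulators. Xbp1 and the 6 folding genes were lower in goblet cells, namely Xbp1 (log2 -3.72 ± 0.28), Pdia4 (-3.64 ± 0.25), Sdf2l1 (-3.05 ± 0.24), Hsp90b1 (-2.86 ± 0.28), Dnajc3 (-2.6 ± 0.24), Pdia6 (-1.16 ± 0.26) and Hspa5 (-1.02 ± 0.26). Ern2 (6.44 ± 0.48), Creb3l1 (3.89 ± 0.37) and Creb3l4 (7.05 ± 0.57) were higher. Of all 5622 genes tested, 25.7% were higher in goblet cells and 23.6% lower.

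Ern2 and Xbp1 show the split most plainly. Ern2 is not the only IRE1 gene, and Ern1 is among the 4 sensors of the wider list below. All 4 sensors were higher in plasma cells than in enterocytes (median log2 2.23), where 26.6% of all genes tested were called higher. In goblet against enterocyte cells 3 of the 4 were higher and 1 was not called, where 23.1% of all genes were called higher. Xbp1 in goblet cells was between 0.0754 and 0.0919 times its plasma level within each library, and Ern2, which plasma cells hardly held, had 458 UMIs in goblet cells against 2. Pooled over the libraries with no block, the counts gave a goblet to plasma ratio of 140 for Ern2 (95% counting interval 38.6 to 1163). For Creb3l4 the ratio was 180 (32.0 to 7119). The 2 classes drew on the libraries unequally, so these ratios mix libraries and kits. The fitted differences of these genes depend on how a count near 0 is treated. Hspa5, the nearest to equal, was not called without VApcMinL 1 (log2 -0.88, adjusted p = 0.056) or without VApcMinL 2 (-0.72, adjusted p = 0.085). Plasma markers in goblet cells reached 6.04 per 10000 UMIs in ApcMin 1 and 0.08 to 1.16 in the other libraries.

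**Figure D2:**
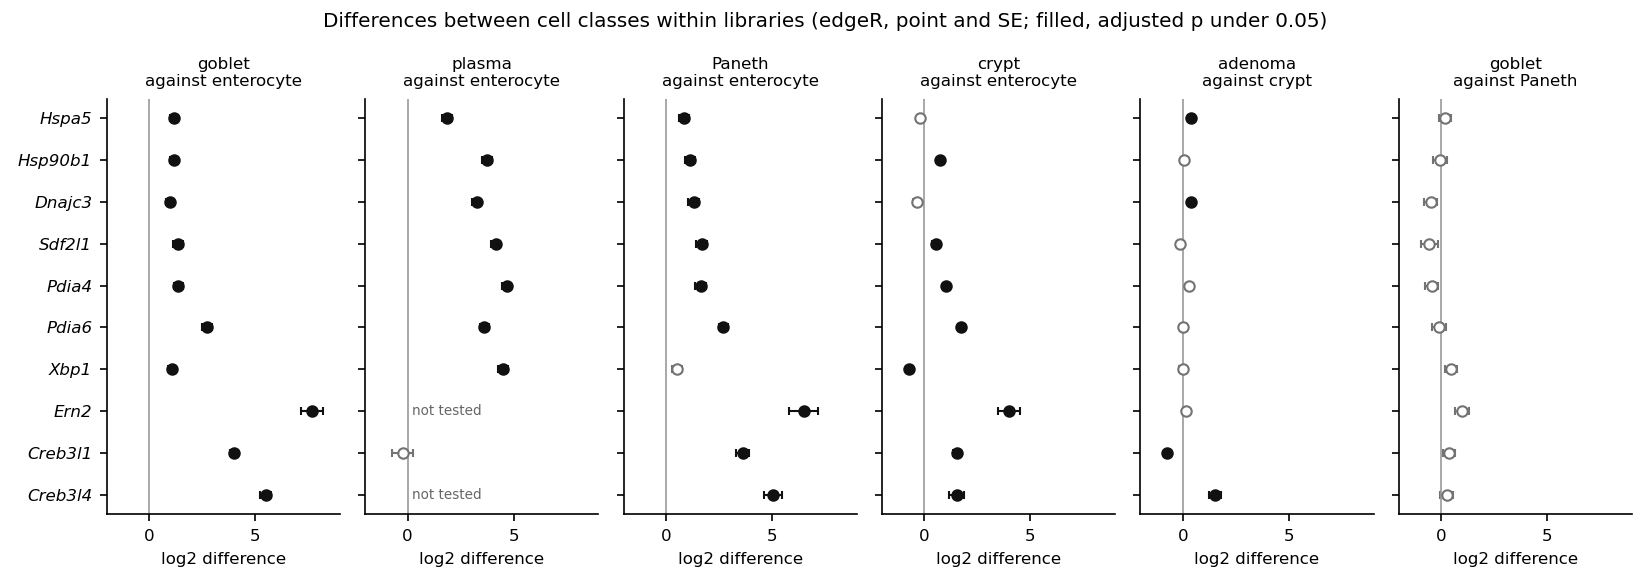
Log2 difference of each gene in 6 comparisons of cell classes, with bars of 1 SE; filled points passed an adjusted p of 0.05. All 10 genes are higher in goblet cells than in enterocytes, 7 of 8 are higher in plasma cells, and no gene is called between goblet and Paneth cells.

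Paneth cells, which fill crypt bases with antimicrobial peptides, showed how much the scale matters for so loaded a cell. They numbered 10, 11 and 26 in ApcMin 1, ApcMin 2 and VApcMinL 2. The marker genes of all gates and further defensin genes, 69 genes in all, were counted together. They took 65.1%, 67.2% and 53.5% of all UMIs of the class, against 7.3 to 9.0% in enterocytes. Shares of all UMIs are therefore lowered for every other gene. Hspa5 in Paneth cells was 0.642 to 0.982 times its enterocyte level by that scale, and Xbp1 0.509 to 0.884 times.

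With edgeR's scaling, which sets most genes level, 9 of the 10 genes were higher in Paneth cells than in enterocytes, where 20.2% of the 8192 genes tested were called higher and 26.7% lower. Ern2 (log2 6.5 ± 0.68), Creb3l4 (5.05 ± 0.42), Creb3l1 (3.63 ± 0.30) and Pdia6 (2.71 ± 0.21) led. Sdf2l1 (1.68 ± 0.26), Pdia4 (1.63 ± 0.26), Dnajc3 (1.30 ± 0.25), Hsp90b1 (1.11 ± 0.23) and Hspa5 (0.85 ± 0.23) followed, and Xbp1 differed by 0.53 ± 0.24 (adjusted p = 0.0734). The median of the 10 was 1.65, against -0.09 over all genes tested.

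By UMI totals with no scaling factor, all values shifted by -1.09 and only 4 genes were called higher, with 6.65% of all genes called higher and 57.5% lower. These were Ern2 (5.47), Creb3l4 (3.98), Creb3l1 (2.51) and Pdia6 (1.60). Hspa5 (-0.26) and Hsp90b1 (-0.00054) changed sign and neither was called. The high level of Ern2, Creb3l1, Creb3l4 and Pdia6 in Paneth cells thus held on both scales, and that of the other folding genes did not. Under edgeR's scaling Hspa5 also missed the threshold without ApcMin 2 (log2 0.59, adjusted p = 0.0536), with a higher UMI floor (0.74, adjusted p = 0.0541) and with no expression filter (0.44, adjusted p = 0.177), and with cells thinned to 1000 UMIs none of the 4 members that could be tested was called. Without VApcMinL 2 Xbp1 passed the threshold (0.81, adjusted p = 0.0312).

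**Figure D3:**
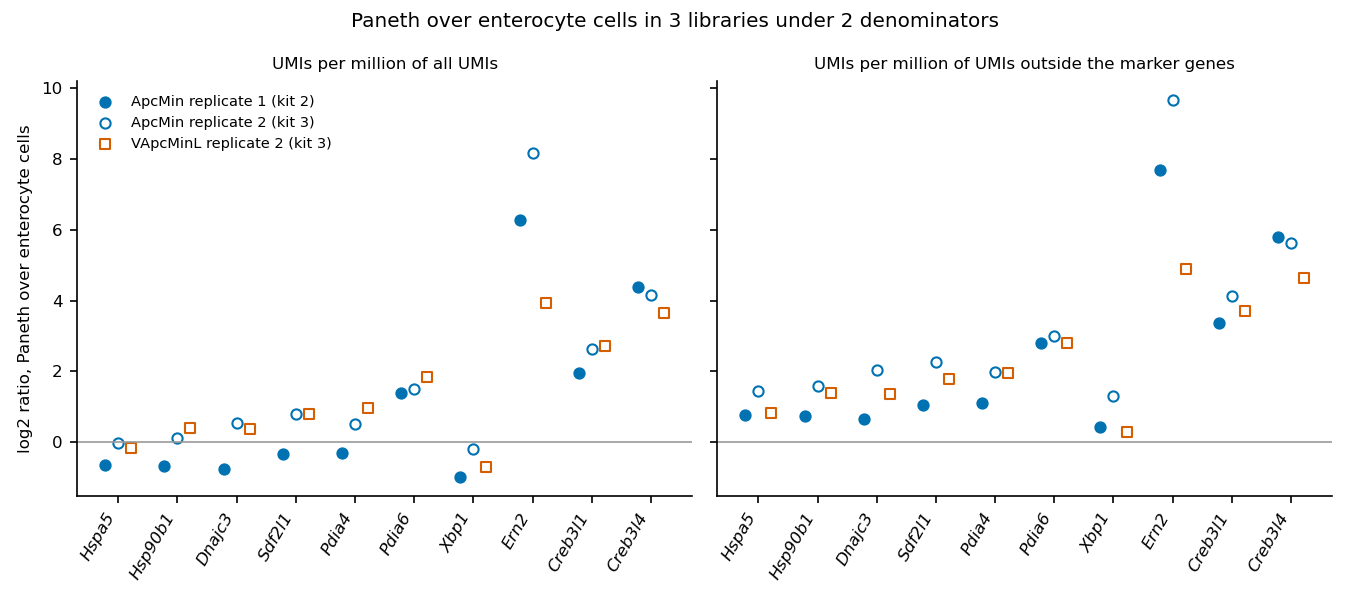
Log2 of the level in Paneth over enterocyte cells in each of 3 libraries, as a share of all UMIs and as a share of other UMIs. The latter leave out the gates' marker genes and further defensin genes. Leaving these genes out raises every gene shown, while Ern2, Creb3l1, Creb3l4 and Pdia6 are above 0 on both scales.

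Between goblet and Paneth cells none of the 10 genes was called by edgeR or by DESeq2, where 3.87% of the 6096 genes tested were higher in goblet cells and 2.23% lower. By the same test 1 member, Ern2, had an unadjusted p below 0.05 (log2 0.98 ± 0.33, adjusted p = 0.1). By UMI totals, with all values shifted by 1.11, 7 members were higher in goblet cells, with 57.3% of all genes called higher and 1.21% lower. They were Ern2 (2.1), Xbp1 (1.61), Creb3l1 (1.51), Creb3l4 (1.37), Hspa5 (1.33), Hsp90b1 (1.07) and Pdia6 (1.03). Each class held some of the other's markers, with 26.5 to 44.4 goblet marker UMIs per 10000 in Paneth cells of these 3 libraries and 34.1 to 44.5 Paneth marker UMIs in goblet cells. Their part in the result was not tested.

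Crypt cells, gated by crypt markers and with little Olfm4 in the kit 2 libraries, were compared with enterocytes to follow the genes along differentiation. Whether these cells divide was not measured. Of the 10 genes, 7 were higher in crypt cells and 1 lower, where 35.7% of the 9760 genes tested were called higher and 37.6% lower. Ern2 (log2 4.00 ± 0.53), Pdia6 (1.75 ± 0.16), Creb3l1 (1.55 ± 0.18), Creb3l4 (1.52 ± 0.35), Pdia4 (1.01 ± 0.15), Hsp90b1 (0.74 ± 0.14) and Sdf2l1 (0.56 ± 0.18) were higher. Xbp1 was lower (log2 -0.74 ± 0.14, adjusted p = 0.000445). Hspa5 (-0.22, adjusted p = 0.146) and Dnajc3 (-0.36, adjusted p = 0.0623) were not called. The medians were 0.88 for the 10 genes and -0.03 for all.

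Xbp1 and Ern2 therefore lay on opposite sides in this comparison. Ern2 stood at 10.3, 9.74, 16.4 and 13.1 CPM in crypt cells and at 0.34, 0.078, 0.47 and 1.68 in enterocytes. Xbp1 stood at 107, 76.7, 101 and 96.2 in crypt cells and was below the enterocyte level in each library. By UMI totals, which shifted all values by 0.44, the Xbp1 difference was -0.31 with an adjusted p of 0.04999, and Hspa5 and Dnajc3 lay at 0.21 and 0.08. Sdf2l1 was not called without ApcMin 1 (log2 0.33, adjusted p = 0.164), and Dnajc3 was called lower without VApcMinL 1 (-0.51, adjusted p = 0.0215).

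Adenoma cells, gated by Wnt target genes, were compared with crypt cells to ask how the tumor cells differed from the pattern of crypt cells. The summed adenoma markers had to be at least 3 per 10000 UMIs in adenoma cells and below 1 in crypt cells. The same score thus separates the 2 classes. Both came from dissociated tumors, and whether the crypt cells were normal was not tested. Creb3l4, Hspa5 and Dnajc3 were higher and Creb3l1 lower, where 20% of the 11378 genes tested were called higher and 16.9% lower. Creb3l4 stood at 9.85, 22.4, 39.0 and 18.8 CPM in adenoma cells and at 4.58, 8.12, 3.86 and 8.02 in crypt cells (log2 1.52 ± 0.29, adjusted p = 0.00434). Creb3l1 ran the other way, at 17.2, 21.2, 17.9 and 16.2 against 29.2, 24.4, 27.0 and 30.3 (-0.73 ± 0.16, adjusted p = 0.00759). In neither gene did the ranges of the 2 classes overlap. For Creb3l4, however, the crypt values lay within or below its range in low-UMI barcodes (5.44 to 11.0). Its adenoma value in ApcMin 1 (9.85) lay within that range too.

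Hspa5 (0.38 ± 0.12, adjusted p = 0.0366) and Dnajc3 (0.38 ± 0.11, adjusted p = 0.0229) differed by less, and neither was called without ApcMin 1, without VApcMinL 1 or without ApcMin 2 (log2 0.27 to 0.44, adjusted p 0.0783 to 0.156). Pdia4 (0.30), Ern2 (0.16), Hsp90b1 (0.07), Pdia6 (0.02), Xbp1 (-0.01) and Sdf2l1 (-0.11) were not called, and the median of the 10 was 0.12 against 0.04 over all genes. In the kit 3 libraries alone no member was called, with Creb3l4 at 1.21 (adjusted p = 0.0793) and Creb3l1 at -0.70 (adjusted p = 0.175). The summed adenoma markers stood at 6.23, 19.2, 20.2 and 7.21 per 10000 UMIs of adenoma cells and were, like Creb3l4, lowest in ApcMin 1 and highest in VApcMinL 1. Their part in the result was not tested.

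The comparisons with enterocytes share those cells, so their values are side by side and not independent. Pdia6 was higher than in enterocytes in all 4 other classes tested (log2 2.73 in goblet, 3.62 in plasma, 2.71 in Paneth and 1.75 in crypt cells). Xbp1 was higher in goblet and plasma cells, lower in crypt cells and not called in Paneth cells.

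Within cells, the counts were compared after each cell was thinned to 1000 UMIs, with shallower cells left out. Xbp1 was then seen in 86.6% (exact 95% interval 82.1 to 90.3%), 91.3% (72 to 98.9%), 91.4% (83.0 to 96.5%) and 87.5% (71.0 to 96.5%) of plasma cells, in 25.7%, 24.2%, 33.9% and 19.8% of goblet cells and in 9.30 to 12.5% of enterocytes. Ern2 was seen in 20% (exact 95% interval 8.44 to 36.9%), 20% (12.5 to 29.5%), 13.6% (6.04 to 25%) and 17.7% (10.7 to 26.8%) of goblet cells. In enterocytes it was seen in 2 of 790 cells of VApcMinL 1 (0.253%) and in 0 of 313, 979 and 622 cells of the others, which allows up to 1.17%, 0.376% and 0.591% of cells with an Ern2 UMI at that depth. At full depth Ern2 was seen in 48.6%, 78.9%, 79.7% and 69.8% of goblet cells and in 0.102 to 1.61% of enterocytes. These intervals cover counting error only. Hspa5 was less particular, with 22.9 to 40.7% of goblet and 18.8 to 31.2% of enterocyte cells at equal depth.

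No single cell carried these sums. The goblet cell with the most Ern2 UMIs held 3.37 to 12.5% of the class's Ern2 in a library, and the plasma cell with the most Xbp1 UMIs 1.63 to 15.6% of the Xbp1. At 1000 UMIs a plasma cell showed 3.74 to 4.61 of the 10 genes on average, a goblet cell 1.49 to 1.78, a crypt cell 0.852 to 1.41, an adenoma cell 1.02 to 1.74 and an enterocyte 0.562 to 0.844. Plasma cells thus lay above every other class in each library, and the goblet and adenoma ranges overlapped.

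Across the 23 sums of class and library, centred within each library, the 10 genes formed 2 blocks. Xbp1 and the 6 folding genes correlated with each other at r = 0.66 to 0.99, and Ern2, Creb3l1 and Creb3l4 at 0.84 to 0.93. Between the blocks, Xbp1 and Ern2 had r = -0.47, and Pdia6, which is high in both secretory cell types, had r = 0.16 with Ern2. The points share libraries, depth and gates, so these values are a description.

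Of 5007 genes with enough counts, those whose pattern was most like that of Xbp1 were Herpud1 (r = 0.979), Serp1, Txndc11, Edem2, Edem1, Unc93b1, Selk, Tmem248, Gm43291 and Sp140 (0.962). Herpud1, Edem1 and Edem2 take part in the disposal of misfolded proteins, and Serp1 in translocation. The genes most like Ern2 were Pla2g10 (r = 0.982), Agr2, Foxa3, Rap1gap, Tspan1, Galnt12, Ttc39a, Hgfac, R3hdml and 5330417C22Rik (0.912). Agr2 encodes a disulfide isomerase needed for mucin folding, Galnt12 adds sugars to mucins, and Foxa3 is a transcription factor.

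A wider list of 82 other genes of the same pathway, in 8 groups, was read beside the members. In goblet against enterocyte cells 51 were higher, 10 lower, 18 not called and 3 not tested (median log2 0.86). In plasma cells 60 were higher and 9 lower (1.67), in Paneth cells 45 and 13 (0.93), and in crypt cells 20 and 34 (-0.05), against the backgrounds given above for each comparison. In adenoma against crypt cells 15 were higher and 5 lower, with 60 not called, and in goblet against plasma cells 9 were higher and 46 lower. Between goblet and Paneth cells 2 were higher, Creb3l3 (log2 1.77) and Txndc5 (1.37), and 1 lower, Spcs3 (-1.29). No gene of the list was called between genotypes. These counts depend on the setting. By UMI totals with no scaling factor 11 were higher and 24 lower in Paneth cells, 39 higher and 24 lower in crypt against enterocyte cells, 25 higher in adenoma against crypt cells and 56 higher in goblet against Paneth cells, and with cells thinned to 1000 UMIs 27 were higher in goblet, 47 in plasma and 7 in Paneth cells.

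Translocation and glycosylation genes were mostly higher in the secretory classes. Of these 24 genes, 22 were higher in goblet, 23 in plasma and 21 in Paneth cells than in enterocytes, with none lower, while 9 were higher and 3 lower in crypt cells. The Paneth count is that of edgeR's scaling, and the group's median there (log2 1.11) is about the size of the shift of -1.09 between the scalings. Of 11 degradation genes, all were higher in plasma cells, 4 were higher and 1 lower in goblet cells, and 9 were lower in crypt cells with none higher. Of 10 chaperones, 8 were higher in goblet, 9 in plasma and 6 in Paneth cells. Of 10 transport genes, which carry cargo between compartments, 4 were higher and 5 lower in goblet cells and 8 were lower in crypt cells.

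The named ends of these lists were as follows. Agr2 led in goblet (log2 8.08), Paneth (6.92) and crypt cells (3.41), and Derl3, a degradation gene, in plasma cells (10.63). Txndc5, a disulfide isomerase, was next in goblet (4.85) and plasma cells (7.05). Creb3l3, a CREB3-family factor of enterocytes and liver, was lowest in all 4 comparisons with enterocytes (-3.59 in goblet, -5.11 in plasma, -5.47 in Paneth and -6.32 in crypt cells). In adenoma against crypt cells Atf3 (1.91), a stress-induced factor, and Creb3l2 (1.68) were highest, and Asns (-0.77) and Sec13 (-0.58) lowest. Between goblet and plasma cells Agr2 (6.83) and Qsox1 (3.83) were highest, and Derl3 (-9.26) and Ero1lb (-5.15) lowest.

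**Figure D4:**
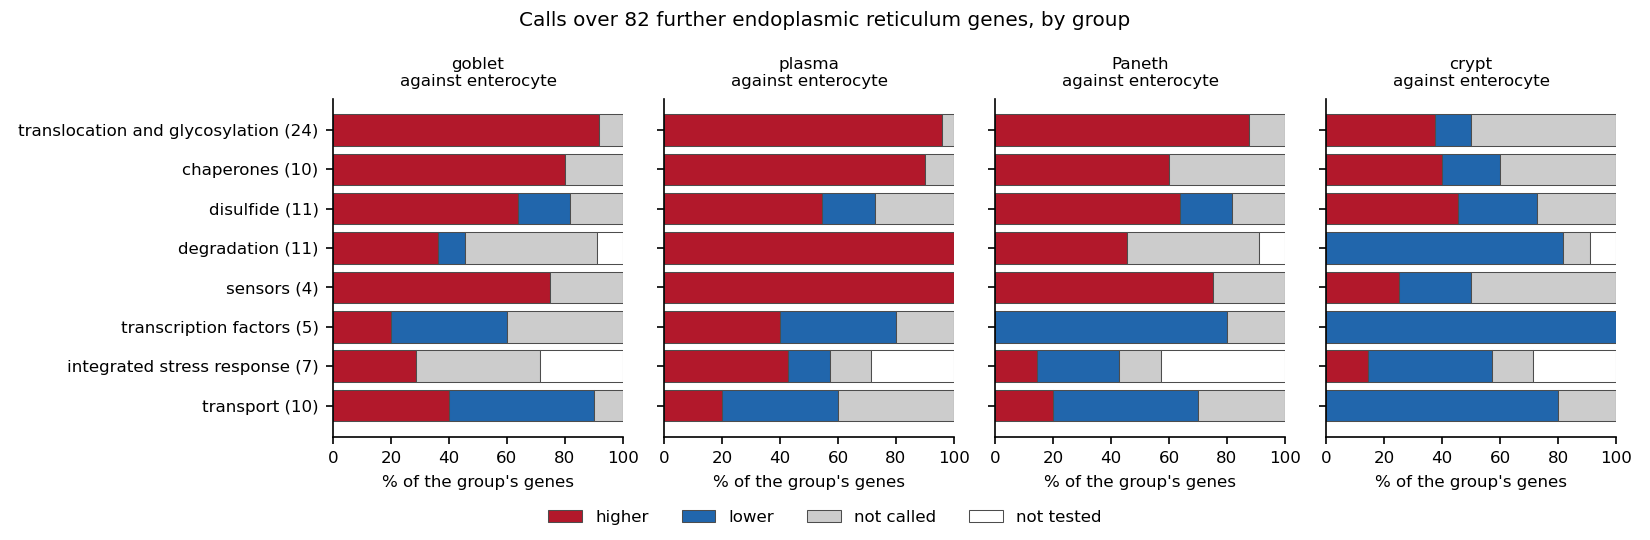
Share of genes (%) called higher, called lower, not called or not tested in 8 groups of the wider list, in 4 comparisons with enterocytes. Translocation and glycosylation genes are mostly higher in goblet, plasma and Paneth cells, and degradation genes are all higher in plasma cells and mostly lower in crypt cells.

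The study's own comparison is that of the genotypes. VApcMinL was compared with ApcMin within each class, with the kit as a block, which leaves 1 pair of libraries per kit. Xist RNA was counted almost only in the libraries labelled VApcMinL. A difference of sex therefore cannot be told apart from genotype in these tests or in the interactions below. By edgeR and by DESeq2 no member was called in adenoma (10 tested), crypt (10), enterocyte (9), goblet (10) or plasma cells (7). Over all genes, edgeR called 1 of 10835 genes in enterocytes (0.00923%), 1 of 7171 in goblet cells (0.0139%) and 1 of 3394 in plasma cells (0.0295%), each time Xist, named after its values were seen. It called 12 of 9541 genes in crypt cells (0.126%, Xist among them) and 0 of 12690 in adenoma cells (0%), where DESeq2 called 5. At an unadjusted p below 0.05 there were 38, 456, 171, 165 and 55 genes in adenoma, crypt, enterocyte, goblet and plasma cells.

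In adenoma cells, the tumor cells proper, the 2 kits pointed in opposite directions. In the kit 2 pair, VApcMinL over ApcMin was 0.79 for Hspa5, 0.87 for Hsp90b1, 1.06 for Pdia4, 1.10 for Pdia6 and 1.95 for Creb3l4 on the log2 scale of levels. In the kit 3 pair the same genes stood at -0.11, -0.74, -0.79, -0.56 and -0.25. Dnajc3 (0.67 and -0.25), Sdf2l1 (0.65 and -0.96), Xbp1 (0.77 and -0.31) and Creb3l1 (0.05 and -0.37) also changed sign, and only Ern2 (0.60 and 0.44) did not.

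By edgeR no member had an unadjusted p below 0.05 in adenoma cells, although some fitted differences, that of Ern2 among them, exceeded their errors. In adenoma cells Hspa5 differed by 0.33 ± 0.29, Hsp90b1 by 0.06 ± 0.45, Pdia4 by 0.13 ± 0.51, Creb3l4 by 0.84 ± 0.62 and Ern2 by 0.53 ± 0.22, each with an adjusted p of 1. Whether differences of such a size could be detected with 2 libraries a genotype was not tested.

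In other classes 2 members had an unadjusted p below 0.05. In crypt cells Sdf2l1 stood at 66.6 and 51.8 CPM in VApcMinL against 80.1 and 109.6 in ApcMin (log2 -0.74 ± 0.24, edgeR adjusted p = 0.6). In plasma cells, where Villin-Cre is not active, Hspa5 stood at 1235 and 2086 CPM against 926 and 1076 (0.68 ± 0.21, edgeR adjusted p = 0.999). Both had the same direction in each kit, and neither passed the test over all genes. In goblet cells the log2 ratio within the kits was 0.94 and 0.64 for Pdia4 and 0.60 and -0.54 for Ern2.

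**Figure D5:**
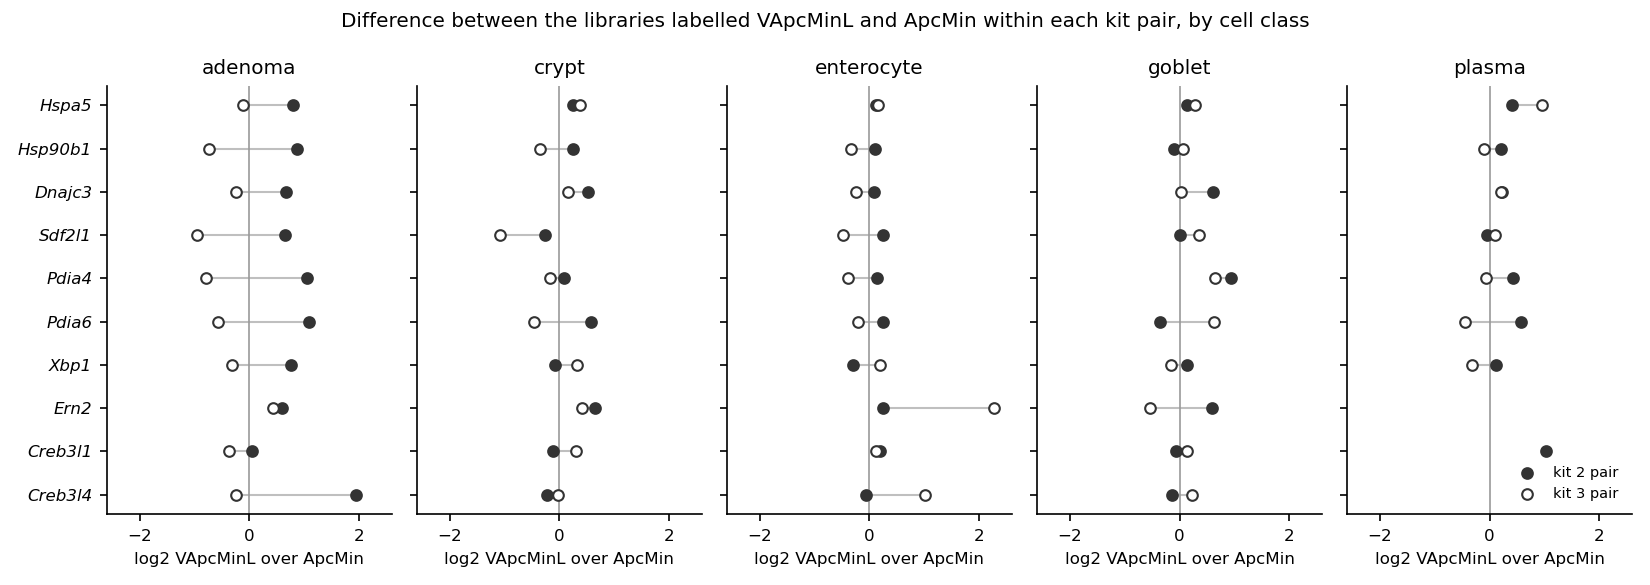
Log2 of the level in VApcMinL over ApcMin in the kit 2 pair and in the kit 3 pair for each gene in 5 classes. In adenoma cells all genes but Ern2 lie on opposite sides of 0 in the 2 kits.

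Whether the goblet to enterocyte difference itself changed with genotype was tested as an interaction. No member was called, where edgeR called 3 of 9841 genes (0.0305%), all lower (Plet1, Fabp6 and Anxa1, named after their values were seen), and 419 had an unadjusted p below 0.05. Ern2 had the lowest p of the members (log2 -3.64 ± 0.89, edgeR adjusted p = 0.362). It rests on the 18 enterocyte UMIs of VApcMinL 2 against 1, 2 and 4 in the others, and was called without ApcMin 1 (-4.25, adjusted p = 3.4e-05) and without VApcMinL 1 (-4.44, adjusted p = 0.00879). Pdia4 (0.83 ± 0.38, edgeR adjusted p = 0.997) was the other member with an unadjusted p below 0.05. For adenoma against crypt cells the interaction called 0 of 12202 genes (0%; 5 by DESeq2) and no member had an unadjusted p below 0.05, with 427 of all genes below it.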

How the data were processed

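The authors deposited, per library, UMI counts of genes by barcode made with Cell Ranger (2.1.1 and mm10/GRCm38 per the labels, a later version in the headers of the kit 3 files), unfiltered. Kit 2 and kit 3 tables list 27998 and 31053 genes; the 27514 shared ones were used, and 0.192 to 0.568% of UMIs lay outside them. Libraries held 44660305 to 128247396 UMIs. Barcodes of at least 1000 UMIs and at most 20% mitochondrial UMIs were gated by summed marker UMIs per 10000 (goblet 400, Paneth 1000, plasma 400, adenoma 3, crypt 3, enterocyte 300, with limits on other lists); cells in several gates were left out. The immunoglobulin genes listed for the plasma gate were not among the shared genes, so they entered neither the gate nor the CPM totals. The gate values were chosen after the marker shares, but not the members, were seen, and the members and lists were chosen with earlier results of these data known. Other tumor data of the study were not analysed here.

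Counts were summed per class and library, for classes of at least 20 cells (10 where Paneth cells entered, chosen after cell numbers were seen), and tested with edgeR 4.0.16 (R 4.3.3; TMM scaling, genes with a minimum count of 10, quasi-likelihood, Benjamini-Hochberg over all genes tested, threshold 0.05, SE from the test statistic), with the library as a block for classes and the kit for genotypes. Replicate numbers mark the kit per the labels, and same-numbered libraries deviated together (r = 0.128 in adenoma, 0.462 in crypt, 0.433 in enterocyte, 0.235 in goblet and 0.474 in plasma cells). All 10 members were named, and of the wider list the 2 called genes with the highest and the 2 with the lowest log2 difference per comparison. Counts were simulated with 200 genes changed by log2 1.5. Of these, 177 were recovered for goblet against enterocyte cells (8507 genes tested) and 168 for genotype in adenoma cells (12544 genes). For plasma against enterocyte cells 150 were recovered, for adenoma against crypt cells 187 and for genotype in goblet cells 123. The simulation gave every gene the same spread between libraries and no kit difference, and changed only well-counted genes. It therefore does not tell what the real libraries could detect. Alternatives covered cell filters, gates, Scrublet doublets, thinning to 1000 UMIs, DESeq2 1.42.0, marker genes, expression filter, scaling, blocks, single libraries and kits. DESeq2 and the other settings are compared in the closing section.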

Additional observations from a re-analysis of the deposited data

How the results depend on the processing

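Of 1017 values of single genes between classes under the alternatives, 34 lost the call, 15 gained it, 4 reversed with a call in either fit, and 27 changed sign without a call in either. Of 884 between genotypes, 3 gained a call and 140 changed sign without a call. The number of members higher in plasma than in enterocyte cells was 7 under every alternative run. With cells thinned to 1000 UMIs the number of members higher was 6 for goblet, 0 for Paneth and 3 for crypt against enterocyte cells, 1 for adenoma against crypt and 0 for goblet against plasma cells, and the number lower was 0 for crypt against enterocyte and for adenoma against crypt cells. By UMI totals with no scaling factor, chosen after seeing the data, 4 members were higher in Paneth than in enterocyte cells and 7 in goblet than in Paneth cells, and the direction turned for Hspa5 (-0.26) and Hsp90b1 (-0.00054) in Paneth against enterocyte cells and for Hsp90b1 (1.07) and Pdia6 (1.03) in goblet against Paneth cells. Members lower in crypt than in enterocyte cells numbered 3 with stricter gates, 3 with no expression filter, 2 in the kit 3 libraries alone, and 1 to 2 leaving out single libraries (2 without VApcMinL 1). Members higher in adenoma than in crypt cells numbered 1 with no library block, 0 in the kit 3 libraries alone and 1 to 3 leaving out single libraries (1 without ApcMin 1, VApcMinL 1 or ApcMin 2), and members lower 0 in the kit 3 libraries alone. With no expression filter 1 member was higher in goblet than in Paneth cells and 1 lower in the interaction with goblet against enterocyte cells, where leaving out single libraries gave 0 to 1 (1 without ApcMin 1 or VApcMinL 1). The cause of these changes was not tested.

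Without the kit as replicate block, the number of members called between genotypes was 0 in each class, as with the block, so the block changed no member's call. Leaving out single libraries was possible between genotypes only without the kit block, the interactions could not be fitted within a kit, and stricter gates and the kit 2 libraries alone left too few Paneth cells. Counts of the wider list moved more (Paneth against enterocyte cells 7 to 47 higher and 3 to 24 lower, crypt against enterocyte cells 12 to 39 higher and 12 to 37 lower, adenoma against crypt cells 0 to 25 higher, goblet against Paneth cells 1 to 56 higher, goblet against enterocyte cells 27 to 52 higher and plasma against enterocyte cells 47 to 64 higher). Over all genes, calls ranged from 1097 (thinned) to 4884 (no filter) around 4129 for goblet against enterocyte cells, and from 398 (kit 3 alone) to 4658 around 4201 for adenoma against crypt cells. In goblet against Paneth cells they ranged from 72 to 3569 around 372. Between genotypes they reached at most 5 in adenoma, 110 in crypt, 48 in enterocyte, 65 in goblet and 21 in plasma cells. At full depth rather than 1000 UMIs per cell, Ern2 was seen in 48.6%, 78.9%, 79.7% and 69.8% of goblet cells, and Xbp1 in 99.3%, 100%, 100% and 96.9% of plasma and in 71.4%, 78.9%, 91.5% and 80.2% of goblet cells. Plasma cells of the kit 3 libraries held so few UMIs that a count of 0 allows up to 14.7 and 17.9 CPM.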
